A study of Mus musculus with 2 samples.

Results

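The imprinted genes Zim1, Peg3 and Usp29 on mouse chromosome 7 and Nespas and Gnas on chromosome 2 were followed through CTCF ChIP-seq of embryonic stem cells (ESCs). They were chosen by name, and their positions were taken from GENCODE M1 on mm9. Each domain was taken from its first to its last gene with 50 kb on each side, which gave a Peg3 domain of 388327 bp and a Gnas domain of 165508 bp. The 5 genes are 5 of 37273 genes in the annotation. They have 14 of its 57963 starts, after transcript starts of a gene within 500 bp had been merged. Of the 33788 CTCF peaks that the authors deposited, 7 had their summit in the Peg3 domain and 0 in the Gnas domain.

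The cells were R1/E ESCs, an established mouse line, carrying a stably integrated bacterial artificial chromosome with the CTCF gene fused to a GFP-containing LAP tag. Chromatin was fixed with 1% formaldehyde. One library was made with a goat antibody to eGFP and 1 with a goat IgG isotype control, which other labels call input DNA. There is 1 library for each antibody and no replicate, and both came from the tagged line, which also has its own untagged CTCF. The CTCF library held 8391191 tags and the IgG library 7988889 tags, all 35 bp long, and no position and strand was listed more than 1 time. The tests below therefore compare 2 libraries and not conditions, and all intervals are exact 95% intervals that cover counting error only. The files give tag positions without base calls, so maternal and paternal copies cannot be told apart.

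CTCF is a zinc finger protein that binds a long DNA motif, can block contact between enhancers and promoters, and holds cohesin at many of its sites. At some imprinted loci it binds only the unmethylated parental copy. Peg3 encodes a zinc finger protein and is expressed from the paternal copy, as is Usp29, a member of the ubiquitin-specific protease family that starts next to Peg3 and is read the other way. Zim1 encodes a further zinc finger protein and is expressed from the maternal copy. Gnas encodes the stimulatory G protein alpha subunit from its downstream start, and other proteins, NESP55 and XLαs, from upstream starts. Nespas is a noncoding RNA read antisense to the upstream part of Gnas, from the paternal copy.

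Sequences under the peaks came first. A 19-bp matrix, with the consensus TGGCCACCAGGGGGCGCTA, was matched on both strands of mm9 (NCBI m37) at p 1e-05. It was built from 192 CTCF motif sequences that the study listed at binding sites of the cohesin subunit RAD21 in ESCs. The study had found them by a search with known motifs, so they were not drawn from the CTCF peaks. A match lay within 150 bp of 6 of the 7 summits of the Peg3 domain, against 73.6% of all summits. The best match of each is shown, since these are the CTCF motifs found near the summits of this domain. Capitals mark the motif, peaks are numbered along the chromosome, and each sequence is written 5′ to 3′ on the strand of its motif.
Peg3 peak 2 (chr7:6641629-6641677, minus strand): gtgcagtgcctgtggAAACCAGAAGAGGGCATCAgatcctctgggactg
Peg3 peak 3 (chr7:6680097-6680145, minus strand): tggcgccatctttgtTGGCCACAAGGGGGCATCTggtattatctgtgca
Peg3 peak 4 (chr7:6871153-6871201, minus strand): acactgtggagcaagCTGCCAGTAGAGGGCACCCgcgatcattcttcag
Peg3 peak 5 (chr7:6890008-6890056, minus strand): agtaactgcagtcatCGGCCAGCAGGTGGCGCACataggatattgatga
Peg3 peak 6 (chr7:6893628-6893676, plus strand): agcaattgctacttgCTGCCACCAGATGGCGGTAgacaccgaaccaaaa
Peg3 peak 7 (chr7:6911460-6911508, minus strand): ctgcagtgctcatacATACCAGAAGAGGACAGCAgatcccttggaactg
The motif read on the minus strand in 5 peaks and on the plus strand in 1, peak 6. Its centre lay 10 to 107 bp from the summit, and 3 of the 7 summits had a match within 50 bp. The motif of peak 3 reads in the same direction as Peg3 itself.

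Peak 3, in an intron of Peg3, held 4 matches of the CTCF matrix, all on the minus strand. The stretch below is shown because 3 of them recur there in a repeated unit that also carries the core of the YY1 motif. YY1 is a zinc finger protein of the GLI-Krüppel family, known for binding repeated sites in the first intron of Peg3. Its core was searched as AAGATGGC on both strands, which is GCCATCTT on the other strand. Capitals mark the 3 CTCF matches and the 2 YY1 cores.
Peg3 peak 3 stretch (chr7:6679985-6680284, minus strand): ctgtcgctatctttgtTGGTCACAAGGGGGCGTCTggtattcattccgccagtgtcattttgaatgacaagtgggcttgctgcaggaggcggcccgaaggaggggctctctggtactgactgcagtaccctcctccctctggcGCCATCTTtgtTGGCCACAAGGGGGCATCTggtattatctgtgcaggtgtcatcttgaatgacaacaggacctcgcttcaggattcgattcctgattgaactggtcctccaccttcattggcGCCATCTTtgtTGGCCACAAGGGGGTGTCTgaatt
Over 34 bases that begin before the core and end with the motif, the middle unit was identical to the last at 32 bases, and the first unit to each of the others at 30. The units began 138 and 122 bp apart. In the last and middle units 3 bases separated the YY1 core from the CTCF motif, and in the first unit the core was not matched. The fourth CTCF match of the peak, 217 bp from the first unit, was identical to the units at 16 or 17 of 34 bases.

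The Gnas domain held 20 matches of the same matrix, and none lay in a peak. Those within 1 kb of a start of Gnas or Nespas are shown for contrast with the sequences of the Peg3 domain, with the motif in capitals.
Gnas match 7 (chr2:174109650-174109698, minus strand): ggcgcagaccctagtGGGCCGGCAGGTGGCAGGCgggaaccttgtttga
Gnas match 8 (chr2:174120936-174120984, minus strand): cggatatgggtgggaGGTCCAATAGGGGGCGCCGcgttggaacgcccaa
Gnas match 9 (chr2:174122959-174123007, minus strand): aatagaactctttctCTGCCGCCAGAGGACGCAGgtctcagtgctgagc
Gnas match 13 (chr2:174156381-174156429, plus strand): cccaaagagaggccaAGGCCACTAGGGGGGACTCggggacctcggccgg
Gnas match 14 (chr2:174171001-174171049, plus strand): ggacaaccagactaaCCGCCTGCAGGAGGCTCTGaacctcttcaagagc
Match 13, in an intron of Gnas 898 bp past its start 5, had the highest matrix score of the domain, 19.1 bits, and 0 tags of either library within 150 bp. Match 8, 23 bp upstream of the Nespas start, also had 0 tags of either library. Match 9, 377 bp upstream of Gnas start 3, had 7 CTCF and 2 IgG tags, the most CTCF tags at any match of the domain. Match 7, 147 bp upstream of Gnas start 1, had 5 CTCF and 0 IgG tags, and match 14, in a coding exon, had 1 of each. In windows centred on the match in the same way, the 9 matches in peaks of the Peg3 domain had 9 to 35 CTCF tags. The most at a match of the Gnas domain, 7, was thus not far below the lowest of these.

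CTCF peaks thus lay in the Peg3 domain and not in the Gnas domain. The Peg3 domain held 1.80 peaks per 100 kb, against 1.27 over chromosomes 1 to 19, X and Y. Of all genome tiles of its length, 29.4% held as many or more summits. Of all tiles of the length of the Gnas domain, 38.6% also held no summit, so neither count stood out by number alone. The 7 peaks were 498 to 1107 bp wide.

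The recount within 150 bp of each summit gave 14 to 36 CTCF tags and 0 to 3 IgG tags. All 7 summits were called, with a depth-scaled ratio of at least 2 and an adjusted p of at most 0.05 (exact binomial test, two-sided, Benjamini-Hochberg over all summits). The authors had called the peaks from the same libraries, so the recount restates their calls, and 94.8% of all summits were called. Over the whole peaks the CTCF library had 244 tags and the IgG library 19, a ratio of 12.2 (7.66 to 20.7).

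**Figure D1:**
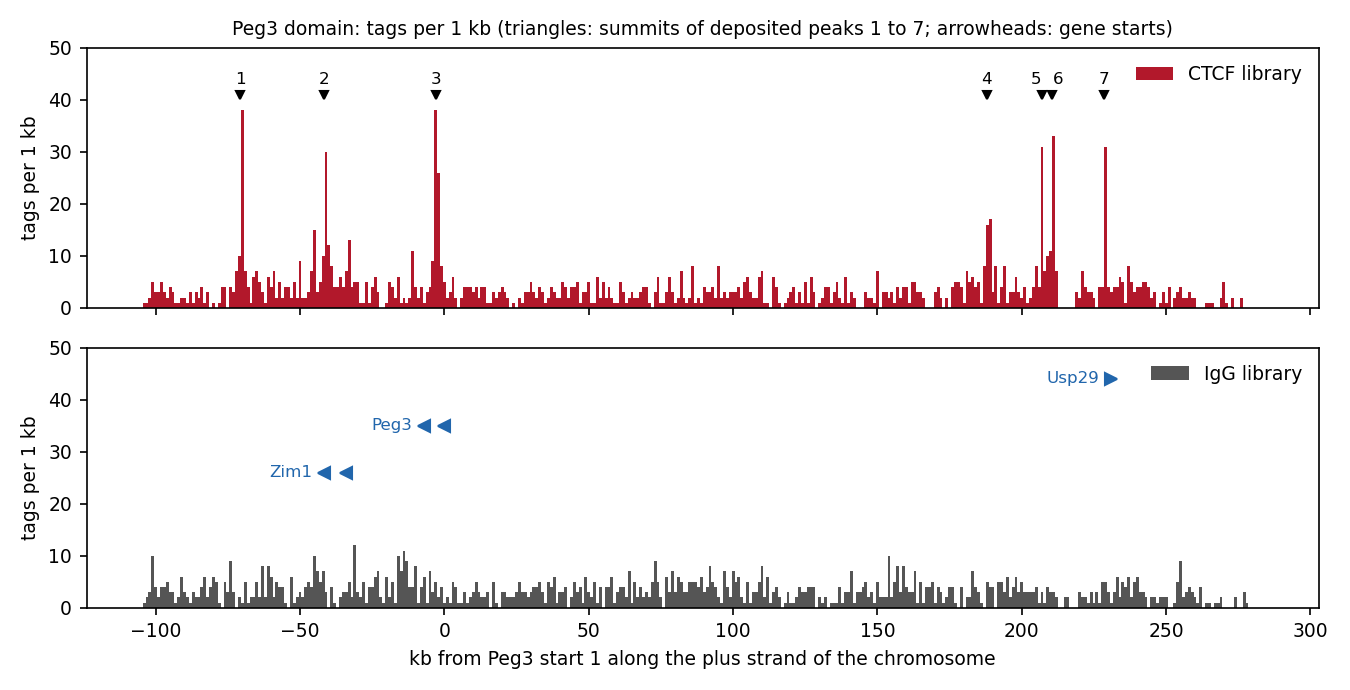
Tags of the CTCF library (top) and the IgG library (bottom) in bins of 1 kb along the Peg3 domain, with distance from Peg3 start 1 in kb on the x axis and tags per 1 kb on the y axis. The summits of the 7 peaks (triangles) mark the tall bins of the CTCF library, which reach 38 tags, while no IgG bin passes 12, and arrowheads mark the starts and directions of Zim1, Peg3 and Usp29.

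The plot of tags along the Peg3 domain shows 2 groups of CTCF peaks with a wide peak-free stretch between them. Peaks 1 to 3 lay beside and in Zim1 and Peg3, and peaks 4 to 7 upstream of the annotated start of Usp29. The summits of peaks 3 and 4 were 190980 bp apart. Of all gaps between neighbouring summits, 8.56% were as long or longer, and the median gap was 25632 bp. That is a share of gaps by number, and long gaps cover a larger share of the genome.

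The strongest of the 7 peaks was peak 3 (chr7:6679576-6680606), in an intron of Peg3 3042 bp downstream of its start. Its summit had 36 CTCF tags and 0 IgG tags. Taken against the floor of 3 IgG tags, the ratio was 11.4. The exact interval for 36 against 0 tags begins at 8.82 (adjusted p = 4.49e-09, exact binomial test, two-sided). The peak was called from these same libraries, so this test restates the call. The peak caller's p-value, given by the authors as a score that grows by 10 for each factor of 10 in p, stood at 451, and the summit height was 29 overlapping tags. By score it ranked 419 among all peaks on these chromosomes, above 98.8% of them. No other peak of the domain had a score above 213.

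The repeated units lay around the summit of peak 3. Within 150 bp of its last, middle and first copies, in the order of the printed stretch, lay 28, 35 and 24 CTCF tags, with 1, 0 and 0 IgG tags. These windows overlap and share tags. At the fourth match of the peak, which lacks the unit and lies furthest from the summit, 9 CTCF and 0 IgG tags were counted.

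**Figure D2:**
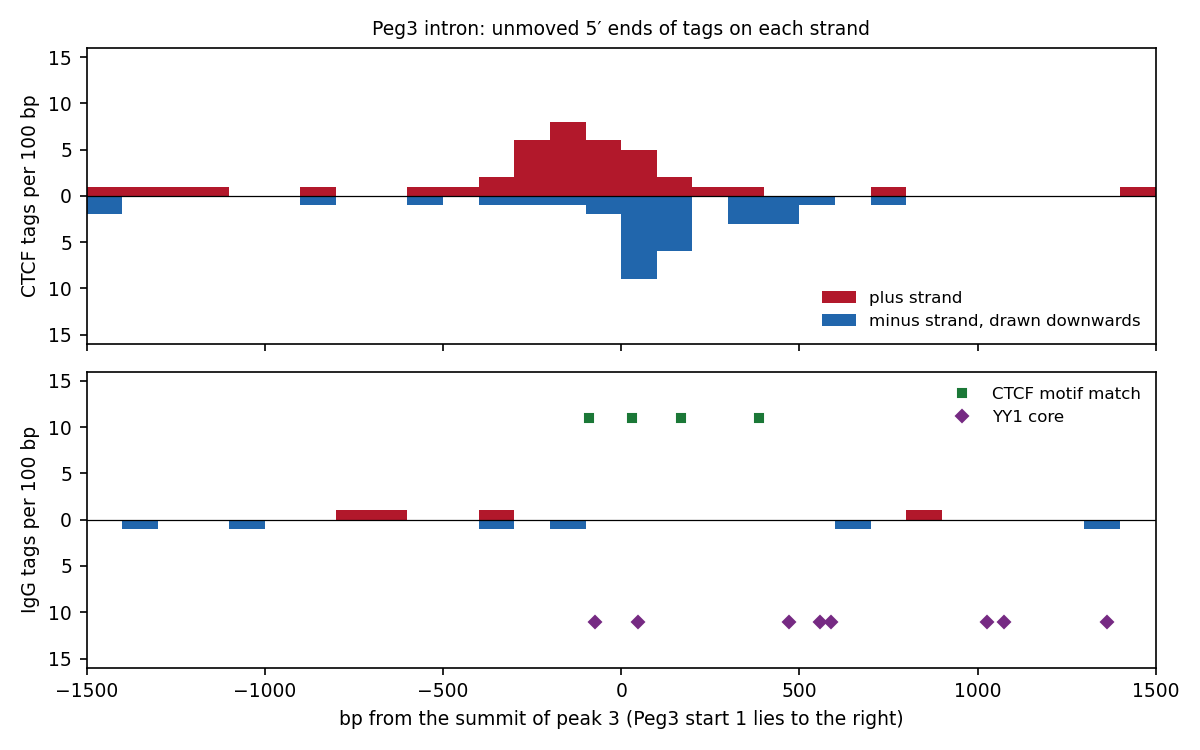
Unmoved 5′ ends of tags on each strand in bins of 100 bp around the summit of peak 3, for the CTCF library (top) and the IgG library (bottom), with tags per 100 bp on the y axis and the minus strand drawn downwards. CTCF tags of the plus strand, with at most 8 in a bin, lie left of those of the minus strand, with at most 9, around 3 of the 4 CTCF motif matches (squares), while the YY1 cores (diamonds) go on to the right, where tags are few.

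YY1 cores went on from peak 3 toward the Peg3 start, but the CTCF tags did not. The stretch chr7:6680012-6682307, 2296 bp long, held 11 copies of AAGATGGC, all on the plus strand. The 2 copies with a CTCF motif match within 20 bases had 30 and 34 CTCF tags within 150 bp and no IgG tag. The 9 other copies had 0 to 4 CTCF tags with a median of 1, and 0 to 2 IgG tags. The 2 copies also lay nearest to the summit, at 78 and 44 bp, and the others 466 to 2210 bp from it, so nearness to the CTCF motif and to the summit cannot be told apart here.

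Summits with 2 or more copies of the YY1 core were scarce. Of all summits, 3.22% had a copy of AAGATGGC within 150 bp and 0.0622%, or 21 summits, had 2 or more, as peak 3 did. Of all copies on chromosomes 1 to 19, X and Y, 2.78% had a CTCF motif match within 20 bases. That share also counts copies that overlap a match, so it is not the share of the side-by-side pairing in peak 3. In the Peg3 domain 4 of 53 copies had such a match, and in 2 of the 4, outside the peaks, the core overlapped the motif itself. Those 2 copies had 5 CTCF and 1 IgG tags, and 3 of each. The Gnas domain held 17 copies, none within 20 bases of a match and none with more than 2 CTCF tags within 150 bp. The search at summits and motifs was chosen after the Peg3 intron had been seen.

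Zim1 had a peak beside its inner start and a further one past its end. Peak 2 (chr7:6641217-6642064) lay in an intron of Zim1, 64 bp upstream of Zim1 start 2, where a shorter transcript begins. Its summit had 16 CTCF tags and 1 IgG tag, a ratio of 15.2 (2.37 to 639). Peak 1 (chr7:6611974-6613080) lay between genes, 29010 bp downstream of that start and past the end of Zim1. Its summit had 28 CTCF tags and 0 IgG tags, a ratio of 8.89 against the same floor. The exact interval begins at 6.76 (adjusted p = 2.58e-07, exact binomial test, two-sided), and here too the test restates the call. Peak 1 was the only one of the 7 without a match of the matrix within 150 bp, and it also had none at p 1e-04. The nearest match on its left, 929 bp from the summit and outside the peak, had 5 CTCF tags and 1 IgG tag.

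Peaks 4 to 7 lay between genes as annotated in GENCODE M1, upstream of its Usp29 start. By the RefSeq start given below, they lay between where Usp29 begins and where its annotated exon ends. Peak 4 (chr7:6870914-6871411) was the lowest and narrowest, with a score of 86.4, a height of 12, and 14 CTCF tags and 1 IgG tag, although its motif was among the best matches of the 6, at 22.6 bits. Before tags were moved, it held 15 CTCF tags on the plus strand and 5 on the minus strand. The strand medians were 16 bp apart, against 99 to 287 bp at the other peaks of the domain. Peaks 5 (chr7:6889593-6890587) and 6 (chr7:6893251-6894180) had summits 3651 bp apart, with 21 and 18 CTCF tags and 1 IgG tag each. Their motifs lay on opposite strands, minus on the left and plus on the right, so that they read away from each other. Peak 7 (chr7:6910996-6911956), 2397 bp upstream of the annotated Usp29 start, had 24 CTCF and 3 IgG tags, a ratio of 7.62 (2.31 to 39.5), the smallest of the 7.

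Outside the peaks the Peg3 domain had no CTCF excess over the IgG library. It had 1179 CTCF and 1201 IgG tags there, a ratio of 0.935 (0.862 to 1.01), beside 0.898 for the genome outside peaks. With 1 kb on each side of the peaks also left out, the ratio was 0.882 (0.811 to 0.959). The fullest 300 bp outside a peak had 12 CTCF and 3 IgG tags and lay 393 bp upstream of Zim1 start 1. In windows of 10 kb, 4 of 38 were called in the Peg3 domain, against 7.76% of all windows (exact binomial test, two-sided, Benjamini-Hochberg). All 4 held a summit. Of the 32 windows without a summit none was called, and they had 10 to 58 CTCF and 8 to 54 IgG tags. The window of 10 kb from 6660001, inside Peg3, went the other way, with 22 CTCF and 54 IgG tags, a ratio of 0.388 (0.225 to 0.648; adjusted p = 0.00197, same exact test). It was named after its value was seen. The 7.76% counts only windows with more CTCF tags, and the share of all windows with such an IgG excess was not counted. With windows of 5 kb, 7 were called, against 5.87% of all such windows, and 6 of them held a summit.

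The Gnas domain lay far from every CTCF peak. The summits on its left and right were 862222 bp apart, and 0.928% of all gaps were as long or longer. That share counts gaps and not bases, and long gaps cover more of the genome than their number shows. It does not say how often a named region falls in such a gap. The left summit (score 56.9, height 8) was 419283 bp before the domain in an intron of Gm14371. The right one (score 97.6, height 12) was 277432 bp past it in an intron of Zfp831. Neither had a motif match within 150 bp. No peak was gained with 100 kb on each side in place of 50 kb.

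**Figure D3:**
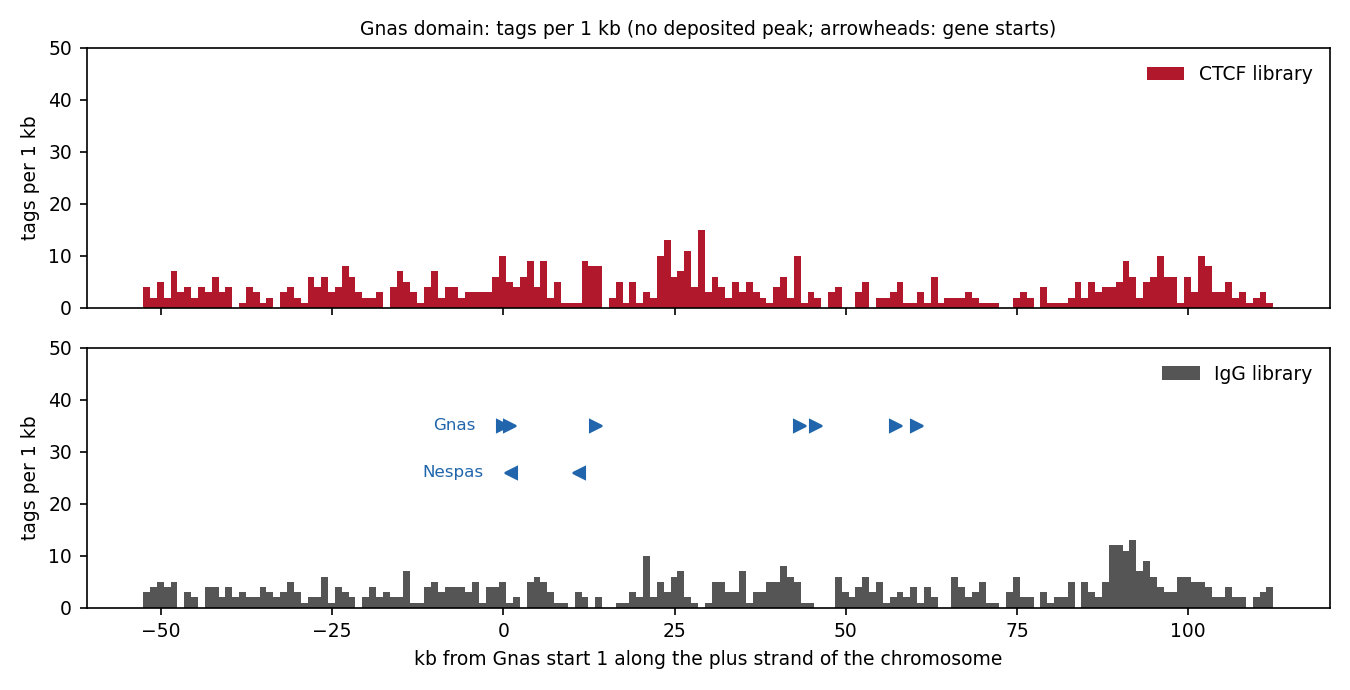
Tags of the CTCF library (top) and the IgG library (bottom) in bins of 1 kb along the Gnas domain, with distance from Gnas start 1 in kb on the x axis, tags per 1 kb on the y axis, and the same y axis as for the Peg3 domain. CTCF bins reach 15 tags and IgG bins 13, the domain has 0 peaks, and arrowheads mark the starts and directions of Gnas and Nespas.

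The absence of peaks was not an absence of tags. The domain held 609 CTCF and 535 IgG tags, a ratio of 1.08 (0.963 to 1.22), whose interval lay above the 0.898 of the genome outside peaks. This was not particular to Gnas. In other imprinted domains delimited in the same way, the ratio outside peaks was 1.11 (1.04 to 1.18) for Kcnq1 and 1.01 (0.906 to 1.13) for H19 and Igf2. For Dlk1 to Dio3 it was 0.935 (0.887 to 0.985), an interval that holds 0.898. The plot of tags along the Gnas domain shows CTCF bins spread over the first part of the gene, none as tall as those at the Peg3 peaks. The fullest 300 bp had 7 CTCF and 2 IgG tags and lay 372 bp upstream of Gnas start 3, around match 9.

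Neighbouring windows in the upstream part of Gnas had more CTCF than IgG tags. The window of 10 kb from 174120001, which holds Gnas start 3 and Nespas start 1, had 41 CTCF and 15 IgG tags. Its ratio of 2.60 (1.41 to 5.06) was called (adjusted p = 0.0126, exact binomial test, two-sided, Benjamini-Hochberg over all windows), 1 of 16 windows of the domain, a share no higher than the 7.76% of all windows. The next window had 74 CTCF and 36 IgG tags, and its ratio of 1.96 (1.30 to 3.00) missed the fold of 2 at an adjusted p of 0.00930 in the same exact test. It was called, at 2.18, when libraries were scaled by their tags outside the peaks. With windows of 5 kb, those from 174120001 (26 CTCF and 6 IgG tags) and from 174135001 (39 and 11) were called, 2 of 32, again close to the 5.87% of all windows. These windows lay between the start of Nespas and an intron past Gnas start 3, none held a summit, and their number did not stand out from the genome.

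Tags were then counted within 1 kb of each of the 14 starts. The CTCF library had more tags than the IgG library, scaled by depth, at 13 of them. The share of all starts was not counted, but their median ratio, given next, was also above 1. A lean to the CTCF library was thus common among all starts and not particular to these. The median ratio was 2.30, against 1.19 over all starts, with Gnas start 5 taken at the floor of 3 IgG tags. The windows of Gnas starts 1 and 2 and Nespas start 2 overlap and share tags, so the 14 counts are not separate. These starts were also richer in CpG, with a median observed-to-expected CpG ratio of 0.578 against 0.282 over all starts, and the part of this in the tag ratio was not tested. At 1 of the 14 the difference was called, close to the 7.77% of all starts. A summit lay within 1 kb of the same start alone, as at 6.16% of all starts.

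**Figure D4:**
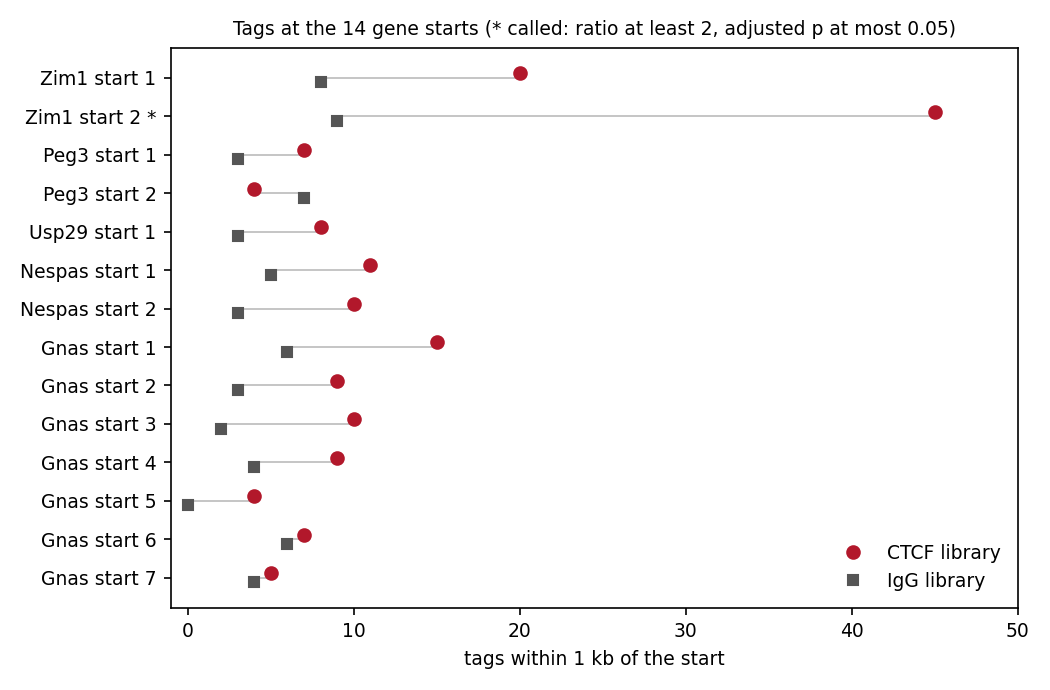
Tags within 1 kb of each of the 14 starts (rows) in the CTCF library (circles) and the IgG library (squares), with the number of tags on the x axis. Zim1 start 2, the called start, has 45 CTCF and 9 IgG tags, and the other 13 have 4 to 20 CTCF and 0 to 8 IgG tags.

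The called start was Zim1 start 2, beside peak 2. It had 45 CTCF and 9 IgG tags, a ratio of 4.76 (2.30 to 11.1; adjusted p = 6.94e-05, exact binomial test, two-sided, Benjamini-Hochberg over all starts). The upstream Zim1 start 1 had 20 CTCF and 8 IgG tags, a ratio of 2.38 (1.00 to 6.25) that did not pass the test. No start but Zim1 start 2 had an adjusted p below 0.249, as the plot of tags at the 14 starts shows by the nearness of the libraries.

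Peg3 had few tags at its start, although its intron carried the strongest peak. Peg3 start 1 had 7 CTCF and 3 IgG tags within 1 kb, and start 2, inside the gene, had 4 and 7, the one start where IgG was higher. Start 1 also held 2 copies of the YY1 core, as 1.16% of all starts do with 2 or more. Over the 14 starts, 2 held a copy, Peg3 start 1 and Gnas start 4, against 14% of all starts.

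Usp29 was annotated in GENCODE M1 by its coding exon alone (chr7:6913871-6916480), and that start had 8 CTCF and 3 IgG tags. The RefSeq promoter sequence of Usp29 matched mm9 at 1 place, with its start at 6683294, only 162 bp from the Peg3 start and on the other strand. There too 8 CTCF and 3 IgG tags were counted, a ratio of 2.54 (0.609 to 14.9). By the RefSeq start, chosen after the short GENCODE model had been seen, peaks 4 to 7 lie downstream of where Usp29 begins, and the nearest summit is peak 3 at 3204 bp.

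The 7 Gnas starts and 2 Nespas starts were 329526 bp or more from the nearest summit. Gnas start 1, at the upstream end, had 15 CTCF and 6 IgG tags, and start 2 had 9 and 3. Nespas start 2, 179 bp from Gnas start 2 and on the other strand, had 10 and 3 in a window that largely overlaps. Nespas start 1 had 11 and 5. None of these passed the test.

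Gnas start 3, the next downstream, had 10 CTCF and 2 IgG tags, a ratio of 4.76 (1.01 to 44.7) with an adjusted p of 0.254 (exact binomial test, two-sided). Gnas start 4 had 9 and 4 tags, and start 5, 2436 bp further on, had 4 and 0. Starts 6 and 7, inside the gene, had 7 and 6, and 5 and 4, and their ratios of 1.11 and 1.19 were the lowest of the Gnas starts with IgG tags. The intervals of neighbouring starts overlapped, so no order among the Gnas starts can be read from these tags.

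The window decided how many of these starts were called. Within 2.5 kb of the starts, 6 of the 14 were called, against 15.6% of all starts. They were Zim1 start 2, Usp29, Gnas starts 2 and 3 and both Nespas starts. These are not 6 separate regions, since Gnas start 2 and Nespas start 2 had the same 35 CTCF and 13 IgG tags, and the windows of Nespas start 1 and Gnas start 3, 2423 bp apart, overlapped. Gnas start 3 then had 27 CTCF and 4 IgG tags, a ratio of 6.43 (2.24 to 25.3; adjusted p = 0.000504, exact binomial test, two-sided). The window of Usp29 then took in the summit of peak 7, while none of the Gnas and Nespas windows had a summit to take in.

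The CTCF motif was common at these starts. A match lay within 1 kb of 7 of the 14, against 27% of all starts. Those with a match were Zim1 start 2, Usp29, Nespas start 1 and Gnas starts 1, 3, 5 and 7. Of these 7, Zim1 start 2 alone was called.

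Matches of the matrix outside peaks drew few tags in either domain. The Peg3 domain had 46 matches, of which 9 lay in peaks and had 9 to 35 CTCF tags within 150 bp. The other 37 had 0 to 5 CTCF and 0 to 4 IgG tags. The 20 matches of the Gnas domain had 0 to 7 CTCF and 0 to 3 IgG tags. Genome-wide, 12.5% of matches lay in a deposited peak.

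With each tag counted at every match it lay near, the sums outside peaks were 50 CTCF and 24 IgG tags in the Peg3 domain and 40 and 13 in the Gnas domain. Those are depth-scaled ratios of 1.98 and 2.93, beside 2.04 at all matches outside peaks. The best match outside a peak, of 21.6 bits, stood between Peg3 and the annotated start of Usp29, where 3 CTCF and 0 IgG tags were counted.
Peg3 match 22 (chr7:6859886-6859934, plus strand): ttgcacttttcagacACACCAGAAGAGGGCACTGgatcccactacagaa
It is shown because its motif scored above those of peaks 2, 3 and 7.

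Of the 46 matches of the Peg3 domain, 15 held the string CCAGAAGAG, which peaks 2 and 7 and match 22 have in their motifs. Genome-wide 79052 of 258105 matches held it, a similar share, so the string was not particular to this domain. The string was singled out after the sequences had been seen. Of 15 matches with it, 2 lay in peaks, against 8.34% of all matches with it. Of the 31 other matches of the domain 7 lay in peaks, 4 of them in peak 3, against 14.3% of all matches without the string. The Gnas domain had 2 matches with the string and 18 without it.

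The heights of the Peg3 peaks were set beside those of other imprinted domains delimited in the same way. The Peg3 peaks had a median height of 18 tags, from 12 to 29, and 6 of the 7 were at or above the median of all summits, 13. The H19 and Igf2 domain had 5 peaks with a median of 10, the Kcnq1 domain 15 with a median of 12, and the Dlk1 to Dio3 domain 10 with a median of 10. Their tallest summits had 17, 22 and 21 tags, all lower than peak 3. By score, a summit of the Kcnq1 domain with a height of 16 stood above peak 3, at 618 against 451. These are values of 1 library and were not tested.

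**Figure D5:**
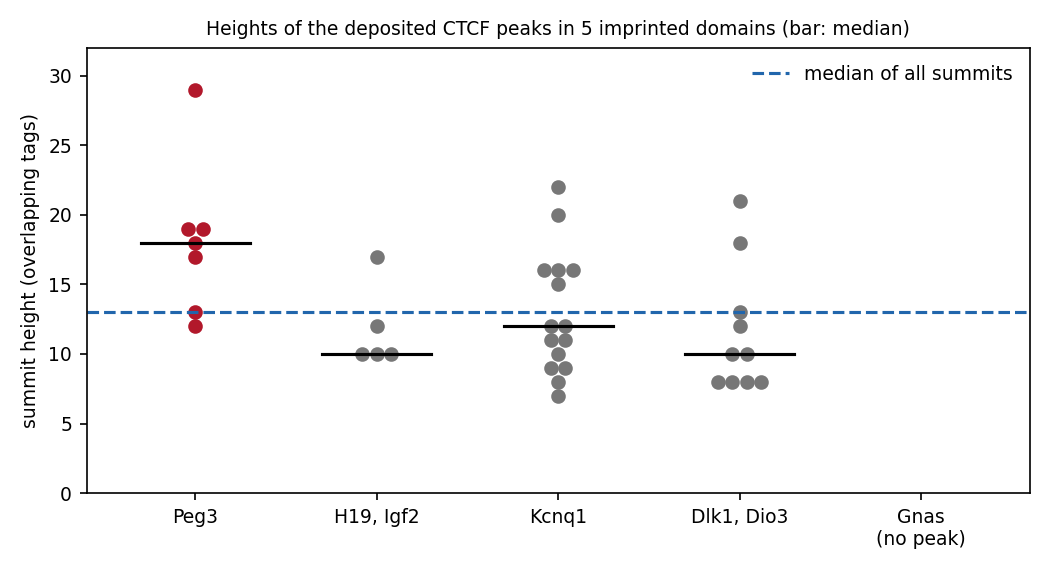
Summit heights, in overlapping tags, of the deposited CTCF peaks in 5 imprinted domains (points), with the median of each domain (bar) and of all summits (dashed line, 13). The 7 Peg3 peaks run from 12 to 29 with a median of 18, the other domains with peaks have medians of 10 to 12, and the Gnas domain has no peak.

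Starts of other imprinted genes were counted in the same way. The annotation held 12 of 14 other imprinted genes listed by name, most of them with a germline methylated region at or near a start, and they had 43 starts. Of these, 1 was called, a start of Mest (adjusted p = 0.0240, exact binomial test, two-sided), and their median ratio was 1.19, equal to that of all starts and below the 2.30 of the 14 starts in the Peg3 and Gnas domains. The starts of the other imprinted genes had a median observed-to-expected CpG ratio of 0.347, against 0.578 at those 14 starts. The part of this in the difference of tag ratios was not tested. None of the 3 other gene starts in the Peg3 domain and none of the 3 in the Gnas domain was called.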

How the data were processed

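Tags of 1 CTCF ChIP and 1 IgG ChIP library, peaks and summits were used as deposited, on mm9. The authors deposited aligned 35-bp tags as 1 line each, with a raw count of 1 and no repeated position and strand; whether duplicates had been removed is not given in the sources used here. The aligner and the handling of tags with several places are not given in the sources used here. Peaks were called by the authors with MACS (1.4, per the submitters' processing notes) against IgG. The deposited score, at least 50, rises by 10 for each 10-fold fall of the p-value, and the deposited summit signal is the pileup height in tags.

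The 1000 highest scoring peaks gave fragments of 187 bp, so 5′ ends were shifted by 93 bp toward the centre and counted within 1 kb of starts, 150 bp of summits and in 10 kb windows. Libraries were scaled by their total tags. Exact binomial tests were two-sided, with Benjamini-Hochberg adjustment over all features with a tag. Where IgG had 0 tags, 3 were used for the printed ratio only. Tests and intervals used the 0, and the fold of 2 then counted as passed. Work was done in Python 3.11.15 with scipy 1.17.1, pandas 2.3.3, numpy 2.4.6 and matplotlib 3.10.9. Scripts were tested on simulated data. The genes named were the 5 members with every start, every peak of both domains, genes nearest to a peak and the listed comparison genes. Matches and windows beyond these were named after their values were seen. Members and lists were chosen with earlier results of these data known. The promoter sequences of 7 RefSeq entries for 4 of the 5 genes were matched to mm9 by sequence. Nespas was not in that table. Kcnq1ot1 and Peg13 were not matched by name.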

Additional observations from a re-analysis of the deposited data

How the results depend on the processing

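With 1 library per antibody, nothing here measures the spread between cultures, and about 3 tags per 1 kb in either library limit what can be seen at a single start. No paired analysis was possible because neither antibody has a second library. Within 2.5 kb of the starts, 6 were called in place of 1. Windows of 5 kb gave 7 calls in place of 4 in the Peg3 domain and 2 in place of 1 in the Gnas domain, where scaling by tags outside the peaks also gave 2. Within 50 bp of the summits, 3 of the 7 had a motif match in place of 6. Scaling by tags outside the peaks moved the ratio outside peaks of the Peg3 domain from 0.935 to 1.04. The ratio at Gnas start 6 went from 1.11 to 0.952 within 2.5 kb. Over all 89 alternatives, 77 kept the direction and the side of the threshold or stayed near the value, 5 single starts were called that had not been, 6 counts or values moved, 1 changed direction and 0 lost a call. Starts with at most 3 tags in both libraries within 500 bp got no ratio. The cause of these changes was not tested.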
